A study of Mus musculus with 3 samples.

Results

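The report concerns 8 microRNAs (miRNAs) that are tied to lymphocyte activation and to the transcription factor NF-kappaB: hsa-miR-21, hsa-miR-146a, hsa-miR-146b, hsa-miR-155, hsa-miR-132, hsa-miR-212, hsa-miR-221 and hsa-miR-222 (probe names are those of human miRNAs, and the prefix is left off from here on). They were found on the array by probe name, with mismatch versions of the probes set aside, and each name belonged to 1 probe, so 8 probes were taken from 1491 probe identifiers on the array, of which 276 carry the name of a miRNA with a mouse gene of that name. RNA came from CD4+CD8+ T-lineage cells of Balb/c mice, in 3 groups: ICN1 tumor cells, ICN1-expressing cells that were not malignant, and normal control thymocytes without a stated transgene. ICN1 is the intracellular, constantly active part of the receptor NOTCH1. Each group had 1 sample and 1 array, and the labels give neither the number of animals behind a sample nor how ICN1 was delivered. On every array Hy3 was the dye of the sample, and Hy5 that of a common pool into which each sample went in equal amount.

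A miRNA is a short RNA that guides an Argonaute protein to messenger RNAs, chiefly through its seed (bases 2 to 8), and lowers their output. Signals through antigen receptors and Toll-like receptors activate NF-kappaB and AP-1, which raise the transcription of the miR-155 and miR-146a genes and, with other factors, of miR-21. miR-146a then lowers TRAF6 and IRAK1, signalling proteins upstream of NF-kappaB, and so acts as a brake. miR-155 instead lowers SHIP1 and SOCS1 and favours lymphocyte responses. miR-21 lowers PDCD4, miR-132 and miR-212 come from a CREB-responsive locus, and miR-221 and miR-222 lower the cell cycle inhibitor p27 and the receptor KIT.

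The mature mouse sequences are shown because 6 of the 8 members form pairs with a shared seed, which bears on how far 1 probe can be told from the next. They are RefSeq entries of build GRCm38.p6, all 8 members were matched, and capitals mark the seed. The array names do not give the arm of the hairpin, so the arm that the plain name usually means was taken, and the probe sequences themselves were not used here.
miR-21a-5p: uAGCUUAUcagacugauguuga
miR-146a-5p: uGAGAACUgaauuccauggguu
miR-146b-5p: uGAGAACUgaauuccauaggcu
miR-155-5p: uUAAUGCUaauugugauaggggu
miR-132-3p: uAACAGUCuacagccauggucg
miR-212-3p: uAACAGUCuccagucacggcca
miR-221-3p: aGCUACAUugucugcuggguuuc
miR-222-3p: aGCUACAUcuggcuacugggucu

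The 8 sequences hold 5 different seeds. Counted from 1 at the 5′ end, with the first miRNA's base given first, miR-146a-5p and miR-146b-5p are identical at 20 of 22 bases and differ by G18A and U21C. miR-132-3p and miR-212-3p are identical at 17 of 22 bases, and miR-221-3p and miR-222-3p at 11 of 23. Both of the latter pairs are neighbours in the genome. The hairpins of miR-212 and miR-132 lie 203 bases apart on the plus strand of chromosome 11, with the mature arms at chr11:75173443-75173464 and chr11:75173723-75173744. Those of miR-221 and miR-222 lie 504 bases apart on the minus strand of chromosome X, with the arms at chrX:19146307-19146329 and chrX:19146901-19146923. The remaining 4 are single genes, miR-21a-5p at chr11:86584120-86584141 (minus strand), miR-146a-5p at chr11:43374435-43374456 (minus strand), miR-155-5p at chr16:84714143-84714165 (plus strand) and miR-146b-5p at chr19:46342790-46342811 (plus strand). Mouse also has miR-21b, on chromosome 3, which is identical to miR-21a-5p at 18 of 22 bases and differs within the seed by C4U.

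The median Hy3 background was 70 intensity units on the ICN1 tumor array, 82 on the non-malignant ICN1 array and 77 on the control array, and 60.9%, 56.2% and 60.1% of the 276 mouse-named probes were detected on these arrays. Detection of a probe required that its Hy3 signal exceed the local background by more than 2 background standard deviations on at least 1 of every 2 spots kept. The miRNAs that mark thymocytes and blood cells in general (miR-181a, miR-181b, miR-142-3p and miR-142-5p) were detected in all 3 samples, 4 of 4 on each array, with a summed Hy3 signal over background of 7615 units in ICN1 tumor cells, 17074 units in non-malignant ICN1 cells and 21781 in control cells. Nearly all of this sum was miR-142-3p and miR-142-5p, the marks of blood cells in general. On the same arrays miR-181a had 43.8, 80.9 and 175 units, and miR-181b 115, 150 and 234 units. Of 5 stromal and endothelial markers 2 were detected on each array (miR-145 and miR-214), with sums of 1506, 1789 and 2227 units, and miR-126, miR-143 and miR-199a on none. Nearly all of the sum was miR-214, with 1475, 1772 and 2177 units. miR-145 had 26.7, 23.9 and 28.3 units, less than the brightest negative control probe of each array. Of 4 epithelial markers 3 were detected on each array, with sums of 146, 155 and 151 units, and miR-205 on none. Of these, miR-200c had 20.0, 30.6 and 31.1 units, also less than the brightest negative control probe of each array.

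The members were mostly faint. Signals are given as the Hy3 signal mean minus the local background median, in intensity units, as mean ± SD over 4 replicate spots of 1 array. The spots are repeats of a measurement and not of a sample. As a floor, 8 negative control probes were measured in the same way, and the brightest of them had a median of 35.4 units on the ICN1 tumor array, 31.9 on the non-malignant ICN1 array and 38.7 on the control array. Counting kept spots, 4 of the 8 members lay above that floor on the ICN1 tumor array, and 6 did so on the non-malignant ICN1 array and on the control array. The share of all mouse-named probes above the same floor was not counted, so these counts describe the members only. By detection over local background the counts were 5, 7 and 7 of 8, which on the tumor array include miR-146a. By that rule 60.9%, 56.2% and 60.1% of the 276 mouse-named probes were detected.

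miR-21, the member with the clearest signal over its own background, had 375 ± 8.8 units in ICN1 tumor cells, 939 ± 61.5 units in non-malignant ICN1 cells and 410 ± 5.9 units in control cells. The non-malignant sample was the high one, and its spots, from 891 to 1025 units, did not overlap those of the other arrays. The same pool gave 526, 644 and 631 units in Hy5 at these spots.

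miR-146a, the brake on NF-kappaB signalling, had 33.2 ± 2.6 units in ICN1 tumor cells, 111 ± 9.0 units in non-malignant ICN1 cells and 74.8 ± 0.79 units in control cells. The tumor value was just under the floor of the negative controls, and the spots of the 3 arrays did not overlap. Its close relative miR-146b had 17.1 ± 2.4 units in ICN1 tumor cells, where it was not detected, 59.3 ± 6.7 units in non-malignant ICN1 cells and 64.4 ± 2.6 units in control cells. Both miRNAs were thus lowest on the tumor array, and for miR-146b the spots of the other arrays overlapped. The pool signal at these probes was weak everywhere, from 11.6 to 30.1 units for miR-146a and from 11.1 to 26.7 units for miR-146b.

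miR-155, which promotes lymphocyte responses, had 51.1 ± 1.5 units in ICN1 tumor cells, 88.3 ± 4.4 units in non-malignant ICN1 cells and 158 ± 1.1 units in control cells. The control sample was the high one, with no overlap between arrays. The Hy5 pool at the same spots ran in the same order, with 24.2, 37.2 and 50.6 units.

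Within the CREB-linked pair, miR-132 had -0.64 ± 0.89 units in ICN1 tumor cells, 2.8 ± 1.6 units in non-malignant ICN1 cells and 3.3 ± 0.66 units in control cells. It was detected on no array and takes no part in the comparisons. miR-212 had 42.6 ± 3.1, 44.5 ± 6.3 and 39.2 ± 2.6 units on the same arrays. All 3 values lay just above the floor, and the spots of the 3 arrays overlapped.

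In the remaining pair, miR-222 had 95.7 ± 4.2 units in ICN1 tumor cells, 135 ± 8.6 units in non-malignant ICN1 cells and 127 ± 2.2 units in control cells, with overlap of the last 2 arrays. Its neighbour miR-221 had 31.3 ± 1.9 units in non-malignant ICN1 cells and 36.2 ± 0.61 units in control cells, in both just under the floor although detected over local background. On the ICN1 tumor array all 4 miR-221 spots carried the quality flag 3, whose meaning is not given in the sources used here, and were left out. As read, they had 42.1 ± 2.3 units, and no tumor value of miR-221 enters the comparisons. The plot of signal over background shows the 8 members beside the floor.

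**Figure D1:**
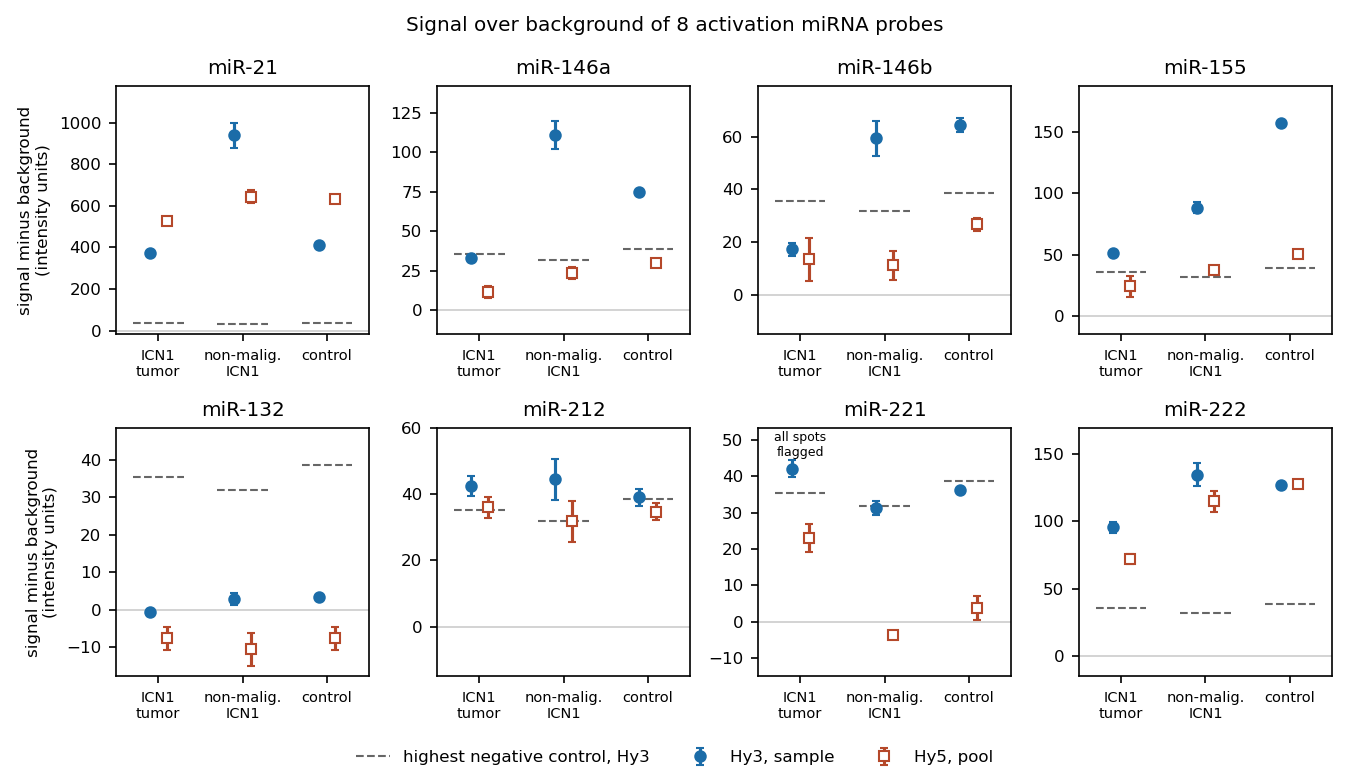
Signal minus local background (intensity units, linear axis, a scale of its own in each panel) of the 8 probes on the 3 arrays. Filled circles are the Hy3 signal of the sample, open squares the Hy5 signal of the pool (mean ± SD over 4 spots), and dashed lines the brightest negative control in Hy3; miR-21 at 375 to 939 units stands far above the line, whereas miR-132, miR-212 and miR-221 lie on, near or below it.

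For 4 members the array also carries a mismatch probe (name ending in MM1 or MM2), which its name gives as a mismatch version of the member probe. The name ends in MM2 for miR-146a and in MM1 for miR-21, miR-146b and miR-155. What the suffixes stand for is not given in the sources used here, so miR-146a cannot be set beside the others like for like. At miR-21 the mismatch probe had 22.1 units in ICN1 tumor cells, 10.3 units in non-malignant ICN1 cells and 14.0 in control cells, a share of 0.059, 0.011 and 0.034 of the member probe. At miR-146a it had 3.7, -4.3 and -1.6 units. For these 2 members nearly all signal was absent from the mismatch probe.

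The other 2, with MM1 probes as miR-21 has, behaved differently. At miR-146b the mismatch probe had 7.7 units in ICN1 tumor cells, 42.7 units in non-malignant ICN1 cells and 48.8 in control cells, which on the last 2 arrays was a share of 0.72 and 0.76. On the tumor array both probes were under the floor of the negative controls, and no share is given. At miR-155 the mismatch probe was brighter than the member probe on all 3 arrays, with 102 units in ICN1 tumor cells, 148 units in non-malignant ICN1 cells and 222 in control cells, or 2.0, 1.67 and 1.41 times the member probe. So the miR-146b and miR-155 probes were not set apart from their mismatch probes as miR-21 was, and what else these probes bind was not tested.

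**Figure D2:**
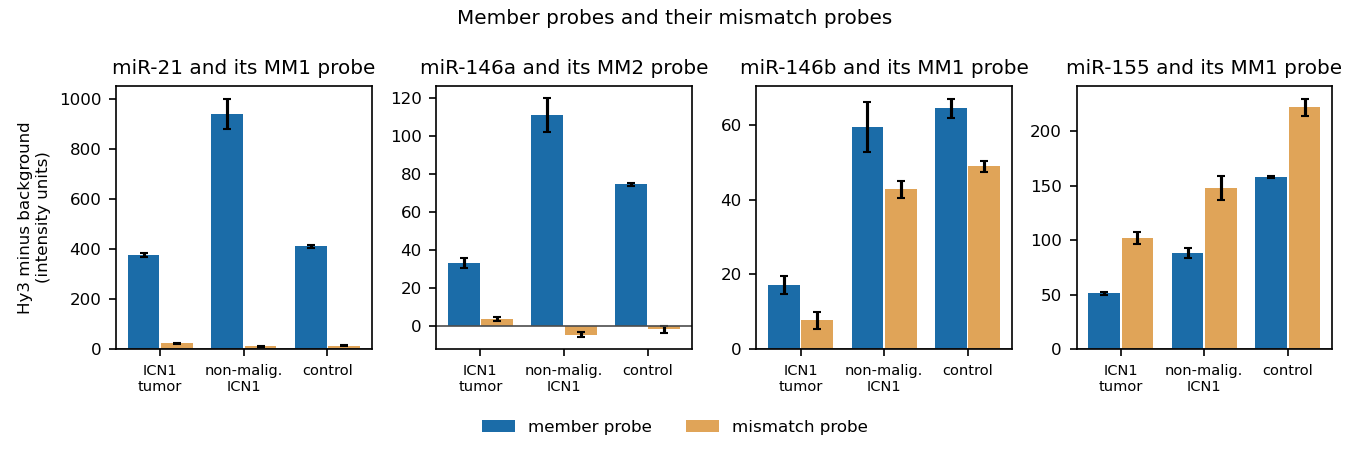
Hy3 signal minus local background (intensity units, linear axis, own scale per panel, bars from 0) of 4 member probes and their mismatch probes on the 3 arrays, mean ± SD over 4 spots. The mismatch bar is close to 0 for miR-21 (MM1) and miR-146a (MM2). For miR-146b (MM1) it is at 0.72 and 0.76 of the member in non-malignant ICN1 and control cells, and for miR-155 (MM1) above the member.

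For comparisons between samples the log2 ratio of Hy3 to Hy5 was used, after background correction and loess normalization within each array. Differences are between log2 ratios, with the first-named sample minus the second, and ± is the standard error over spots. With 1 sample per group there is no test, no p-value and no replicate check, and a difference of 2-fold or more (1.0 on the log2 scale) served as the rule of size. The pool is the same RNA on every array. The difference of its Hy5 signal, centred on the median of all tested probes, shows how far that dye moved with its RNA unchanged. This signal was background-corrected but not loess-normalized. It therefore includes movement shared by both dyes, which the ratio is meant to cancel, and is not the error of the ratio.

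The first comparison was of the non-malignant ICN1 sample with the control sample. miR-21 was 2.19-fold higher in non-malignant ICN1 cells than in control cells (1.13 ± 0.017), which was rank 6 from the top of 167 mouse-named probes. miR-146a was higher by 0.47 ± 0.024 (rank 9), and miR-222 by 0.22 ± 0.0099 (rank 16). miR-155 lay on the other side, at -0.40 ± 0.022. The differences of miR-212 (0.12 ± 0.039), miR-146b (0.098 ± 0.050) and miR-221 (-0.0019 ± 0.021) were no larger than the SD of the pool's Hy5 differences, 0.16 over all probes.

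Of the 7 members compared, 1 was at 2-fold, against 5.99% of all 167 tested probes (10 in either direction, 4.19% higher and 1.8% lower). The members' median was 0.12, beside -0.025 for all tested probes. The pool signal moved by 0.069 at miR-21 and by -0.064 at miR-155, beside a band of 0.265 that held 95% of the pool's differences over all tested probes. The ratio difference of miR-222, 0.22, was within that band. At miR-146a the pool was above background on 0 of 4 spots in the non-malignant ICN1 array, so that its movement cannot be read. The same held at miR-146b, with 0 of 4 spots on that array and 2 of 4 on the control array. At miR-221 it was 0 of 4 on both arrays, with -3.8 and 3.7 units. The small ratio differences of miR-146b and miR-221 thus rest on a pool signal near background. The movement of the pool measures the arrays and not the spread between samples.

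The myeloid miRNA miR-223 was higher in the same sample, by 1.19 ± 0.022, with 366 units in non-malignant ICN1 cells and 164 in control cells. It is the 1 myeloid marker among the miRNAs examined, and myeloid cells also express miR-21 and miR-146a. The part of such cells in the differences of miR-21 and miR-146a was not tested. In bulk RNA a change in the share of a cell type and a change in RNA per cell cannot be told apart.

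The second comparison was of the tumor sample with the control sample. Of 6 members compared 0 were at 2-fold, whereas 15.3% of 177 tested probes were, 26 of them lower (14.7%) and 1 higher (0.565%). Members lay on both sides of 0. miR-222 was higher in tumor cells by 0.38 ± 0.0094 (rank 5 of 177) and miR-21 by 0.32 ± 0.011 (rank 8). miR-212 differed by 0.13 ± 0.038, and between -0.034 (no normalization) and 0.68 (Hy3 alone) under the alternatives. On the lower side were miR-155 (-0.67 ± 0.024), miR-146b, and miR-146a (-0.49 ± 0.023), which was at 0.13 when the Hy3 channel was used alone and whose tumor signal, as given above, was under the floor of the negative controls.

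miR-146b was not well above background on the tumor array, so its difference has no measured size there. The ratio gave -0.71 ± 0.069, against -0.41 with median centring and -0.027 with Hy3 alone, and no bound is given because it would depend on the scaling. Its mismatch probe differed by -0.72 ± 0.031 between the same arrays, and that of miR-155 by -0.35 ± 0.035, while those of miR-21 (-0.080 ± 0.094) and miR-146a (0.031 ± 0.039) were within their standard error of 0.

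The members' median in this comparison was -0.18 over 6 members, beside -0.12 for all tested probes. The pool signal was less steady here, with an SD of 0.34 over all tested probes and a band of 0.80 for 95% of them. None of the 6 differences exceeded that band, which describes the Hy5 signal alone and not the error of the ratio. At miR-222 the pool moved by -0.34, against a difference of 0.38, so the ratio was higher while the sample's own signal over background, 95.7 units in tumor cells against 127 units in control cells, was not. With the Hy3 channel alone, centred on the median of probes detected on all arrays, miR-222 differed by 0.42 and miR-21 by 0.61. In that setting the median of all tested probes was itself 0.33, and relative to it miR-222 lay at 0.094 and miR-21 at 0.28. The signal over background of miR-21, not scaled between arrays, was 375 units in tumor cells against 410 units in control cells. The pool at these spots was also lower on the tumor array, with 526 units against 631 units. Over all settings the difference ran from 0.17 to 0.77 for miR-222 and from 0.10 to 0.78 for miR-21.

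Markers of other cell types also differed between the arrays. The summed Hy3 signal of 3 erythroid miRNAs (miR-451, miR-144 and miR-486, all detected on every array) was 642 units in ICN1 tumor cells, 11753 units in non-malignant ICN1 cells and 24002 in control cells. Nearly all of it was miR-451, with 505, 11409 and 23628 units, while miR-144 had 31.6, 147 and 89.1 units and so was highest in non-malignant ICN1 cells. The summed signal of the mature lymphocyte miRNAs miR-150 and miR-342 was 84.4, 124 and 166 units, with 1, 2 and 2 of 2 detected. Their part in the differences of miR-155 was not tested.

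The third comparison was of the tumor sample with the non-malignant ICN1 sample. It uses the same arrays as the other comparisons, so its values are not independent of them. miR-21 was lower in tumor cells, at -0.81 ± 0.015 (-0.53 with Hy3 alone). The ratio of miR-146a gave -0.96 ± 0.029 (-0.24 with Hy3 alone), where its tumor signal was under the floor of the negative controls and its pool signal was above background on 0 of 4 spots of either array, so the size is uncertain. For miR-146b, not detected in tumor cells, the ratio gave -0.81 ± 0.083 (-0.015 with Hy3 alone). The remaining members were miR-155 at -0.27 ± 0.029 (0.21 with Hy3 alone), miR-222 at 0.16 ± 0.011 (0.31 with Hy3 alone) and miR-212 at 0.0064 ± 0.039 (0.57 with Hy3 alone). With Hy3 alone the median of all tested probes was itself 0.41.

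Of 6 members compared 0 were at 2-fold, against 10.3% of 174 tested probes (18 in all, 17 or 9.77% lower and 1 or 0.575% higher). The members' median was -0.54, beside -0.081 for all tested probes. The band that held 95% of the pool's differences was 0.82. Of the members miR-146a alone, at -0.96, was beyond it, and miR-21 and miR-146b, both at -0.81, were just inside. miR-223 was lower in the same comparison, at -1.43 ± 0.027, with 65.1 units in tumor cells and 366 in non-malignant ICN1 cells.

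**Figure D3:**
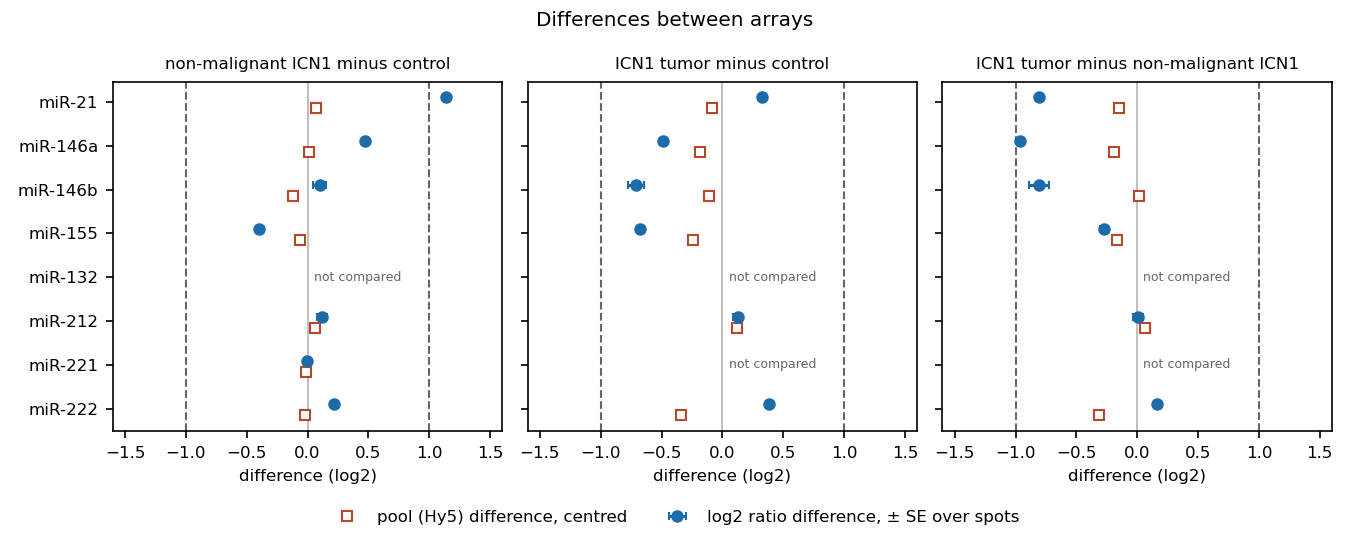
Differences of log2 Hy3/Hy5 between arrays (x axis, log2 units) for the 8 members, filled circles with ± SE over spots, and the centred difference of the pool's Hy5 signal at the same probes, open squares. Dashed lines mark 2-fold; miR-21 in non-malignant ICN1 cells against control cells, at 1.13, is the 1 value past them.

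The order of the 3 samples differed between members. By log2 ratio to the pool, miR-21 stood at -0.20 in ICN1 tumor cells, 0.61 units in non-malignant ICN1 cells and -0.52 in control cells, and miR-146a at -0.34, 0.62 and 0.15. Both were highest in the non-malignant sample, but tumor cells came next for miR-21 and last for miR-146a. miR-155 ran from -0.026 in ICN1 tumor cells through 0.25 in non-malignant ICN1 cells to 0.65 in control cells, and miR-222 ran the other way, with 0.17, 0.011 and -0.20. miR-212 stayed between -0.40 and -0.28. Since the pool is an equal mix of the samples, the mean of a miRNA's 3 linear ratios should be near 1: it was 1.03 for miR-21, 1.0 for miR-222, 1.15 for miR-146a, 1.25 for miR-155, 0.93 for miR-146b and 0.80 for miR-212, against a median of 1.06 over 146 probes detected on all arrays. Most of those probes lay between 0.81 and 1.48, and miR-212 was just under that range. miR-146b, not detected on the tumor array, is not among those probes.

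Likeness of pattern was measured as the root mean square distance between mean-centred log2 ratios over the 3 arrays, among 141 other probes detected on all of them. The probes most like miR-21 were miR-9 (distance 0.14), which NF-kappaB induces in human monocytes, and miR-223 (0.28). The miR-9 signal in control cells was just under the floor of the negative controls. For miR-146a they were miR-27b (0.18) and miR-140 (0.19), for miR-155 let-7f (0.011) and miR-195 (0.040), for miR-212 miR-490 (0.012) and miR-381 (0.020), and for miR-222 miR-138 (0.036) and miR-483 (0.046). With 3 points, such distances describe these arrays and say nothing more.

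A further list held 19 miRNAs tied to T-cell activation or NF-kappaB signalling, 18 of which have a probe. Against control cells, 3 of 15 tested were at 2-fold higher in non-malignant ICN1 cells and 0 lower, beside 4.19% higher and 1.8% lower over all tested probes. The list's median was -0.13, beside -0.025 for all tested probes. The 3 were miR-223, miR-9 (1.08 ± 0.034) and its opposite strand miR-9*, which had no detected signal in control cells (1.5 by the ratio, whose size is uncertain for that reason). miR-9 had 110 units in non-malignant ICN1 cells and 37.6 units in control cells. The latter was just under the floor of the negative controls, 38.7 units, so this size is uncertain too.

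In tumor cells against control cells, 0 of 14 were at 2-fold higher and 4 lower, beside 0.565% higher and 14.7% lower over all tested probes. The list's median was -0.55, beside -0.12 for all tested probes. The 4 were miR-16 (-2.09), which lowers BCL2, miR-31 (-1.35), not detected in tumor cells, miR-181a (-1.24), which sets how thymocytes respond to their T-cell receptor, and miR-29a (-1.14). Against non-malignant ICN1 cells, 5 of 15 were at 2-fold lower in tumor cells and 0 higher, beside 9.77% lower and 0.575% higher over all tested probes. They were miR-31 (-1.72), miR-16 (-1.65), miR-223, miR-9* (-1.18) and miR-9 (-1.07), and the list's median was -0.62, beside -0.081 for all tested probes. miR-31 and miR-9* were not detected in tumor cells, so the sizes of their differences are uncertain. miR-31 had 14.0 units in ICN1 tumor cells, 198 in non-malignant ICN1 cells and 155 units in control cells, and miR-9* had 14.1, 87.9 and 5.9 units. miR-9 had 42.8 units in tumor cells, not far above the floor of 35.4 units on that array. Several of these calls depended on the setting. In the Hy3 channel alone, miR-9 (0.79) and miR-223 (0.96) were under 2-fold in non-malignant ICN1 against control cells, as were miR-181a (-0.47) and miR-31 (-0.83) in tumor against control cells, and miR-9 (-0.090) and miR-9* (-0.37) in tumor against non-malignant ICN1 cells. With loess fitted on mouse-named probes alone, miR-29a (-0.67) and miR-181a (-0.89) in tumor against control cells and miR-9 (-0.90) in tumor against non-malignant ICN1 cells were under it as well.

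The members' own differences under all settings are drawn in the plot of 12 settings, which shows how far each depends on the choice of scaling.

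**Figure D4:**
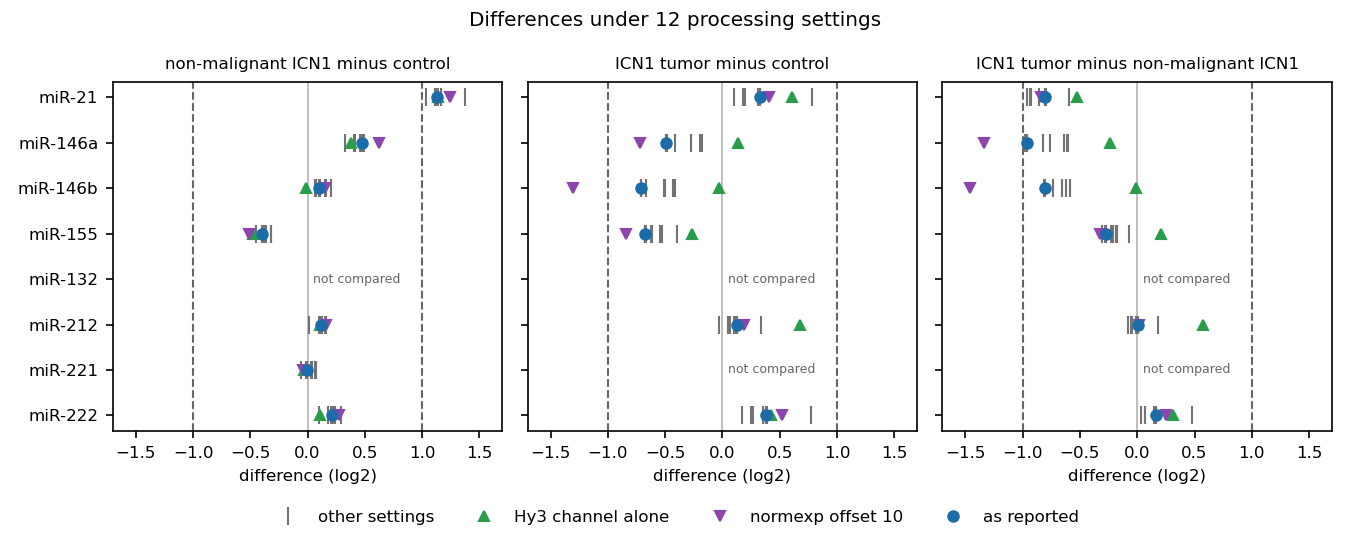
Differences of the 8 members (x axis, log2 units, first-named sample minus second) under 12 settings of background correction, normalization and filtering, with the value as reported (circles), Hy3 alone (upward triangles), normexp offset 10 (downward triangles) and the others (ticks). Dashed lines mark 2-fold; miR-21 in non-malignant ICN1 cells against control cells stays past them, from 1.03 to 1.37, and miR-146a in tumor against non-malignant ICN1 cells spreads from -1.34 to -0.24.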

How the data were processed

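Per the labels, Trizol-extracted RNA was hybridised to Exiqon miRCURY LNA arrays in 2 colours, 1 array per sample. The deposited scanner tables give each spot's intensity in both dyes, linear and not normalized, and a quality flag as a score, per the file headers. A table of the authors' processed values, whose rows name no probe, was not used here, and the scanner software is not given in the sources used here.

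Spots with flag 3 were left out. Background was corrected by normexp (offset 50) on signal mean and background median. The log2 ratio of Hy3 to Hy5 was normalized by loess within each array, in limma 3.58.1 under R 4.3.3, where control and mismatch spots had weight 0. It was then averaged over the spots of a probe. The loess fit included 736 probes without a known target and 175 human-named probes without a mouse gene, beside the 276 mouse-named ones. With mouse-named probes alone, tumor minus control was 0.78 for miR-21 and 0.77 for miR-222, against 0.32 and 0.38 as reported. No member spot was saturated. A probe was compared if detected on at least 1 of its 2 arrays. Summaries used pandas 2.3.3 and numpy 2.4.6 in Python 3.11.15, and plots matplotlib 3.10.9. The steps were tested on simulated data.

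Probes carry human names, and mouse genes of RefSeq GRCm38.p6 were matched by name, with probe sequences unchecked. Precision is limited by having 1 array per group. The members, lists and alternatives were chosen with earlier results of these data known. Named were the 8 members, their mismatch probes, the 2 probes most like each member, a list of 19 pathway miRNAs and marker miRNAs of other cell types.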

Additional observations from a re-analysis of the deposited data

How the results depend on the processing

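No paired analysis was possible because each group has 1 sample. Each comparison was repeated under 11 alternatives. In non-malignant ICN1 cells against control cells the count of members at 2-fold was 1, miR-21, under all of them, with its difference between 1.03 and 1.37. The counts of 0 in tumor cells changed with a normexp offset of 10 alone: 1 against control cells (miR-146b, -1.31) and 2 against non-malignant ICN1 cells (miR-146b, -1.46, and miR-146a, -1.34). A smaller offset shrinks dim probes less, and on the tumor array miR-146b was under the detection limit. Of 19 differences of single members, 13 kept their sign throughout and 6 lay on the other side of 0 in at least 1 alternative. With Hy3 alone the median of all tested probes lay at 0.33 for tumor against control cells and at 0.41 against non-malignant ICN1 cells, where it was -0.12 and -0.081 as reported. In that setting miR-146a (0.13, tumor against control cells) and miR-155 (0.21, tumor against non-malignant ICN1 cells) lay above 0, and miR-146b at -0.027 and -0.015. Relative to the median of all tested probes in each setting, 18 of 19 differences kept their sign. The exception was miR-222 in tumor against non-malignant ICN1 cells, from -0.094 to 0.48. Median centring, no normalization and spike-in centring give equal values of this measure by construction, and changing the probe filter leaves the members' own differences as reported. These settings are thus not separate checks, and the 19 differences share arrays and are not independent. With all spots kept, miR-221 in tumor cells differed by -0.051 from control cells and by -0.039 from non-malignant ICN1 cells.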

Other observations

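Taken relative to the median of all tested probes under each of 12 settings, miR-21 in non-malignant ICN1 cells against control cells lay between 1.13 and 1.34, miR-146a between 0.42 and 0.69 and miR-155 between -0.45 and -0.33. In tumor cells against control cells the same measure ran from 0.28 to 0.74 for miR-21 and from -0.68 to -0.44 for miR-155. As given above, some of the 12 settings cannot differ in this measure. The mismatch probe of miR-155 differed by -0.34 ± 0.049 in non-malignant ICN1 cells against control cells, beside -0.40 for the member probe.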
